A study of Mus musculus with 2 samples.

Results

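Endothelial cells line blood and lymphatic vessels, and the endothelial genes described here are a list of 32 genes linked to these cells. Some of them belong to lymphatic endothelium or to early progenitors, and some are shared with blood cells. The members were found by gene name among the non-control probes of the array, and all 32 were present, of 31870 gene names in all. They were represented by 39 probes, 25 genes by 1 probe and 7 by 2. For 31 of the 32 genes at least 1 probe passed the filter on dim signals, and these 31 carry the results below. All 31 were well above background in both genotypes on both arrays. The exception was Erg, an ETS transcription factor gene.

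The arrays compared ureters of male NMRI mouse embryos at stage E13.5 (embryonic day) with the genotype Tbx18(cre/+);Hprt(Tbx2/Y), called Tbx2-GOF for gain of function, with ureters of the genotype Tbx18(+/+);Hprt(Tbx2/Y), called control. Tbx2 inserted at Hprt, on the X chromosome, was thus common to both genotypes, and they differed in cre at 1 Tbx18 allele, so that the control embryos kept both Tbx18 alleles intact. Cre from Tbx18 acts in descendants of cells that expressed Tbx18, a gene of the mesenchyme around the ureter, and the endothelial cells were not sorted from the other cells of the organ. There were 2 two-colour arrays with swapped dyes, each with 1 Tbx2-GOF and 1 control extract. The Tbx2-GOF extract was red (AlexaFluor647) on array 1 and green (AlexaFluor555) on array 2. The labels give neither the number of ureters per extract nor whether array 1 and array 2 had embryos of their own, so the p-values below cover the spread of 2 arrays that may be technical repeats. Array and dye orientation cannot be told apart.

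Endothelial cells respond to vascular endothelial growth factors through the receptors FLT1, KDR and FLT4, and to angiopoietins through TEK, with TIE1 as its partner. ETS factors such as FLI1, ERG and ETV2 and the SOXF factors SOX7, SOX17 and SOX18 act on endothelial genes, and VE-cadherin (Cdh5) and claudin 5 (Cldn5) join the cells to each other. In the developing ureter, vessels lie in the mesenchyme around the epithelial tube.

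On the whole arrays, 21097 genes were tested and 135 had an adjusted p below 0.05 in limma's test. Tbx2 itself had log2 ratios of Tbx2-GOF over control of 0.04 on array 1 and 0.56 on array 2 (adjusted p = 0.711). Xist, the RNA of the inactive X chromosome, had ratios of 2.25 and 0.89 although all embryos are labelled male (adjusted p = 0.0701). The fetal liver genes Afp (-2.95 ± 0.29, SD, adjusted p = 0.00241) and Alb (-2.15 ± 0.34, adjusted p = 0.0068) fell, but lost that call in 3 of 10 alternative settings, each of which left 0 genes past the test (the scanner software's processed signals, median centring, the series table). All 13 listed genes of the ureteric epithelium and all 10 of the ureteric mesenchyme were measured. No batch other than array with dye was available to be set apart.

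To show what was measured where a gene had more than 1 probe or stood apart, the middle 30 bases (bases 16 to 45) of the 60-base probes for Vwf, Cd34 and Kdr are given as deposited, 5′ to 3′. Capitals mark the polyadenylation hexamer (AATAAA or ATTAAA).
Vwf, chr6:125636551-125636610: cagctacagcggattcctactgatacccat
Cd34, brighter probe, chr1:196787392-196787451: ttgggtgtattctcttctgAATAAAcgtga
Cd34, other probe, chr1:196785280-196785339: gagccaccagagctattcccgaaagactct
Kdr, brighter probe, chr5:76329309-76329368: gaattttaacctataaaactatgtctactg
Kdr, other probe, chr5:76330395-76330454: ggtcctgtcccggctccgcccccaactcct
The coordinates are on mm9, as in the scanner files. The probe pairs of Cd34 and Kdr start 2112 and 1086 bases apart. A hexamer lay in 4 of the 39 endothelial probes (10.3%) and in 6602 of all 39429 probes (16.7%). Whether a probe lies in an exon or a UTR was not determined here.

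Most endothelial transcripts were slightly higher in Tbx2-GOF than in control ureters, and no single member passed the test. The median log2 ratio of the 31 genes was 0.26, beside -0.00 over all 21097 genes. Of the 31, 29 had a mean above 0 and 27 were higher on both arrays. Over all 21097 genes, 26.1% were higher on both arrays (5508 genes), and 5295 genes were lower on both. By array, the endothelial median was 0.37 (array 1) and 0.14 (array 2), so the size of the difference varied between arrays more than its direction.

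No endothelial gene passed limma's adjusted p of 0.05 in either direction, where 0.36% of all genes passed as higher and 0.28% as lower. At an unadjusted p below 0.05, 9 of 31 were higher and 0 lower, against 5.63% and 3.71% of all genes. With median centring in place of loess 3 of 31 were higher at that threshold, against 3.68% of all genes. The smallest adjusted p among the members was 0.118. None was at least 1.5-fold higher on both arrays (0.825% of all genes) and none at least 1.5-fold lower (0.545%). By the brightest kept probe, both Tbx2-GOF signals lay above both control signals for 20 members (18.2% of all genes) and below them for 1 member (16.3%). For the other 10 the groups overlapped. The count depends on the probe. By the other kept probe the groups overlapped for Kdr, Nos3 and Sox17 and stayed apart for Etv2 and Cd34. Of the 31 means, 26 lay between 0.1 and 0.42 and 18 within 0.1 of their own median, with quartiles of 0.20 and 0.34. On arrays 1 and 2 alone, the members' ratios had SDs of 0.30 and 0.23, against 0.27 and 0.32 over all genes. The quartiles over all genes were -0.09 and 0.10, and 27 members lay above the upper of these.

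**Figure D1:**
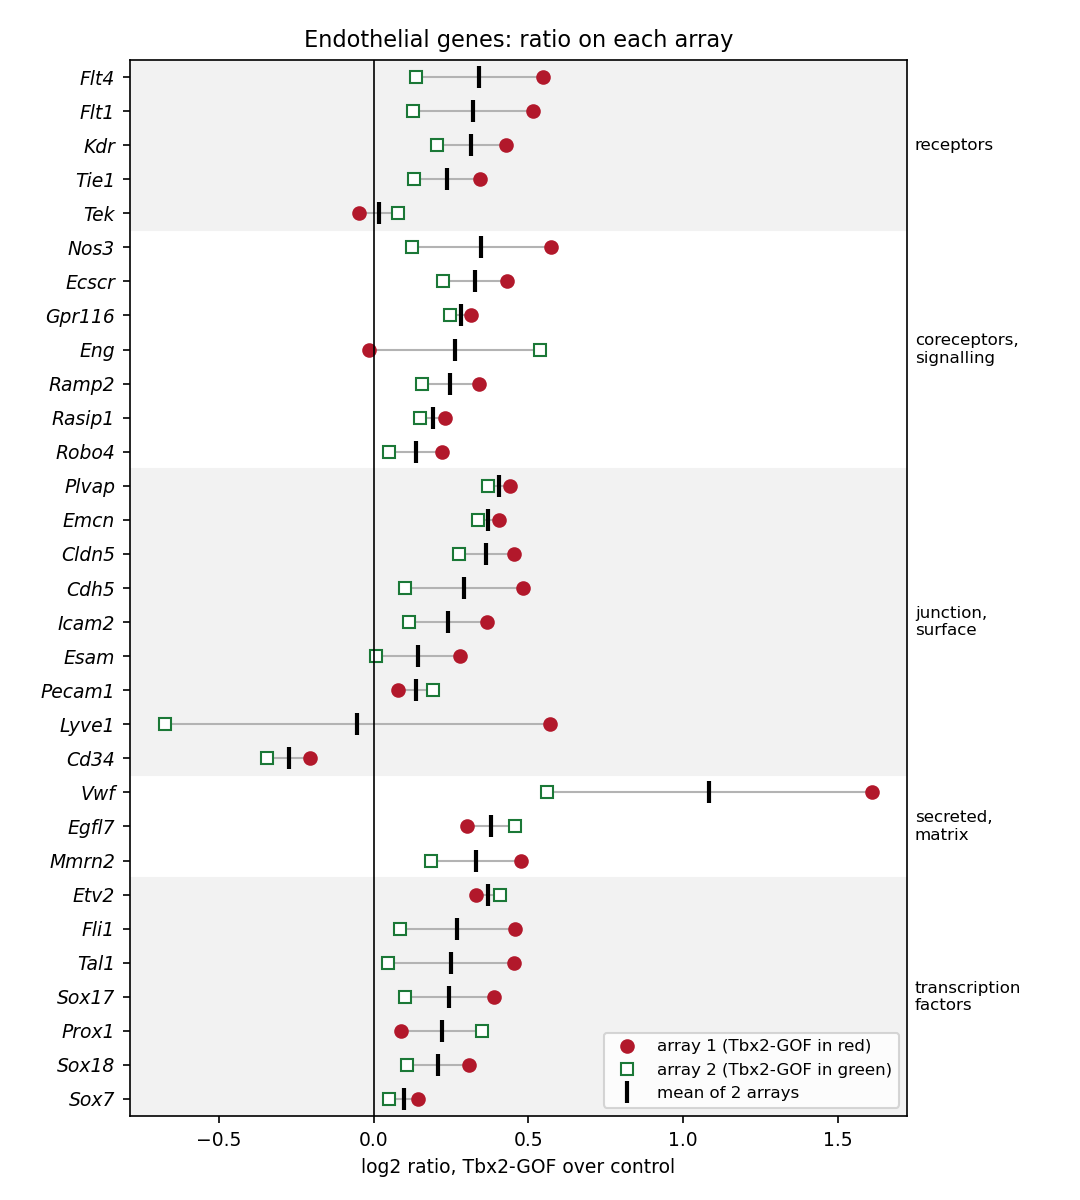
Log2 ratio of Tbx2-GOF over control for each of the 31 measured endothelial genes (rows, grouped by role) on array 1 (filled circles) and array 2 (open squares), with the mean of both as a black bar. Of the 31 genes, 27 lie above 0 on both arrays, Cd34 lies below 0 on both, and the array 1 value is the higher one for 25.

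The 5 receptors of the VEGF and TIE families had a median ratio of 0.32, and 4 of 5 were higher on both arrays. Kdr encodes VEGFR2, the main signalling receptor for VEGF-A. Its brighter probe, printed in 10 spots, gave signals (normalized, arbitrary units) of 7937 and 7051 in Tbx2-GOF and 5902 and 6116 in control extracts of arrays 1 and 2. Both Tbx2-GOF values were above both control values, by log2 ratios of 0.43 and 0.21, with a mean of 0.32 ± 0.16 (SD, n = 2, adjusted p = 0.532). Spots of this probe scattered on each array by an SD of 0.043 (8 spots) and 0.045 (9 spots), less than the 2 arrays differed. The other Kdr probe had ratios of -0.04 and 0.21, so the Kdr probes differed in direction on array 1, and their mean lowered the Kdr ratio to 0.20.

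Flt1, the VEGF receptor that also acts as a decoy, had signals of 2666 and 2539 in Tbx2-GOF and 1864 and 2323 in control, a mean ratio of 0.32 ± 0.27. Flt4, the receptor of VEGF-C on lymphatic and sprouting endothelium, had ratios of 0.55 and 0.14 (mean 0.34 ± 0.29). For both genes the groups did not overlap, and the ratio was larger on array 1. Tie1 had ratios of 0.34 and 0.13 (mean 0.24 ± 0.15). Tek, the angiopoietin receptor, had a mean close to 0, with signals of 1909 and 2094 in Tbx2-GOF and 1971 and 1983 in control (0.02 ± 0.09). Its values in both genotypes were interleaved.

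The 7 co-receptors and signalling proteins had a median of 0.26, and 6 were higher on both arrays. Ecscr, which encodes a surface protein of endothelial cells that modulates their chemotaxis, had 9035 and 10500 in Tbx2-GOF and 6702 and 8983 in control (0.33 ± 0.15, adjusted p = 0.491). Nos3, endothelial nitric oxide synthase, had ratios of 0.57 and 0.12 (mean 0.35 ± 0.32), and a second probe of 10 spots gave 0.34 and 0.25. Gpr116, an adhesion G protein-coupled receptor named Adgrf5 in RefSeq, had 0.31 and 0.25 (mean 0.28 ± 0.05). These genes were higher in Tbx2-GOF on each array.

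Ramp2, which turns the calcitonin receptor-like receptor into an adrenomedullin receptor, had ratios of 0.34 and 0.16 (mean 0.25 ± 0.13). Rasip1, a RAS-interacting protein needed for vessel lumens, had 0.23 and 0.15 (mean 0.19 ± 0.06), and Robo4, a roundabout receptor of endothelium, had 0.22 and 0.05 (mean 0.14 ± 0.12). Eng, or endoglin, a co-receptor for TGF-beta ligands, stood apart from this pattern. Its signals were 2330 and 3005 in Tbx2-GOF and 2354 and 2070 in control, nearly equal on array 1 and higher in Tbx2-GOF on array 2 (0.26 ± 0.39, adjusted p = 0.81).

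Among the 9 junction and surface proteins the median was 0.24, and 7 were higher on both arrays. Plvap forms the diaphragms of fenestrae and caveolae. Its signals were 6533 and 6581 in Tbx2-GOF and 4811 and 5093 in control extracts, ratios of 0.44 and 0.37. This was the largest mean in the role group, with arrays close to each other (0.41 ± 0.05, adjusted p = 0.293). A second Plvap probe, which was not kept, had a smaller ratio of 0.22 on array 1 and no value on array 2. Emcn, endomucin, a sialoprotein of venous and capillary endothelium, had 14650 and 15890 against 11070 and 12580 (0.37 ± 0.05, adjusted p = 0.355). Cldn5, the claudin of endothelial tight junctions, had 12290 and 12610 against 8975 and 10420 (0.36 ± 0.13, adjusted p = 0.393). In all 3 genes both Tbx2-GOF extracts were above both control extracts.

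The other junction proteins had smaller or less even ratios. Cdh5, VE-cadherin, had 0.48 on array 1 and 0.10 on array 2 (mean 0.29 ± 0.27). Icam2, an adhesion molecule bound by leukocyte integrins, had 0.37 and 0.12 (mean 0.24 ± 0.18), and Esam, a tight junction adhesion molecule, had 0.28 and 0.01 (mean 0.14 ± 0.19). Pecam1, or CD31, the usual antigen for staining vessels, had 2690 and 2631 in Tbx2-GOF and 2546 and 2303 in control, with the larger ratio on array 2 (0.08 and 0.19).

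Cd34 was the only measured member lower in Tbx2-GOF on both arrays. This sialomucin is found on endothelium and also on hematopoietic progenitors and some mesenchymal cells. Its brighter probe gave 20320 and 20080 in Tbx2-GOF and 23410 and 25500 in control, both Tbx2-GOF values below both control values (-0.27 ± 0.10, adjusted p = 0.628). The other probe, with 1513 and 1477 against 1881 and 1767, gave a ratio of the same size (-0.29 ± 0.04). Probes 2112 bases apart thus gave Cd34 the same direction.

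Lyve1, a hyaluronan receptor of lymphatic endothelium and of some macrophages, had opposite ratios on the arrays. Its signals were 1472 in Tbx2-GOF and 992 in control on array 1, and 1316 and 2100 on array 2. The ratios were 0.57 and -0.67, and the SD of 0.88 far exceeded the mean of -0.05. Of the other genes linked to lymphatic endothelium, Prox1, a homeobox factor of lymphatic identity, had 0.09 and 0.35 (mean 0.22 ± 0.19), and Flt4 is given above. The Prox1 signals were low, at 187.5 and 172.3 in Tbx2-GOF and 176.4 and 135 in control, and the groups overlapped.

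**Figure D2:**
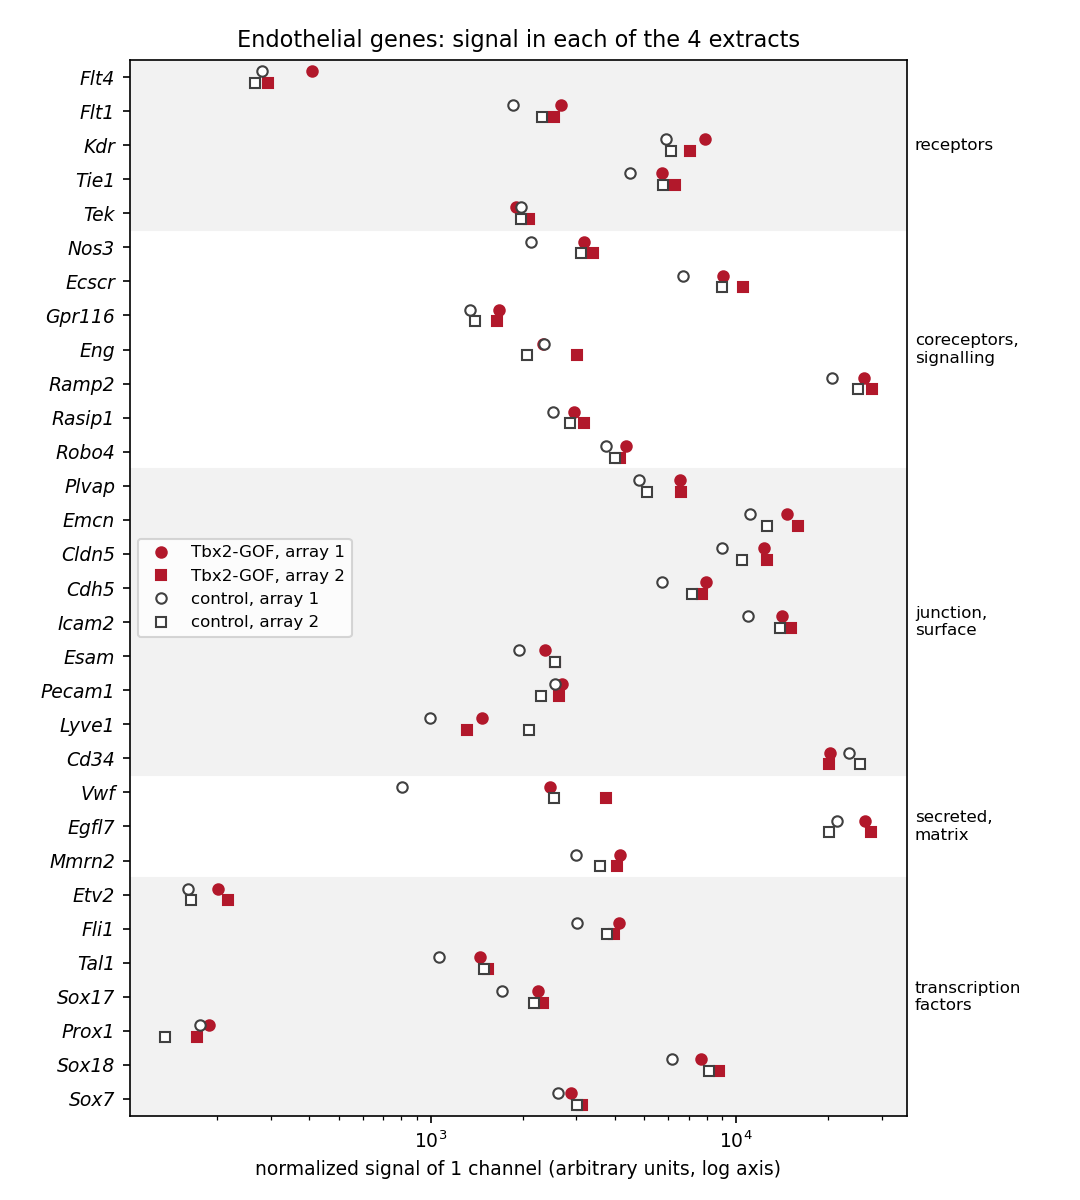
Normalized signal of each endothelial gene (rows, grouped by role) in the 4 extracts on a log axis, with Tbx2-GOF filled, control open, array 1 as circles and array 2 as squares. Signals of different rows come from different probes and are not comparable; within rows, 20 genes have both Tbx2-GOF values above both control values and Cd34 has them below.

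The 3 secreted and matrix proteins all had ratios above 0 on both arrays, as had 26.1% of all genes. Each was higher at an unadjusted p below 0.05 in limma's test (5.63% of all genes), and none passed after adjustment. Vwf, von Willebrand factor, the clotting protein stored in endothelial Weibel-Palade bodies and in megakaryocytes and platelets, had the largest ratio of all members. Its signals were 2455 in Tbx2-GOF and 804 in control on array 1, and 3739 and 2535 on array 2. Tbx2-GOF was higher on each array, yet the control value of array 2 exceeded the Tbx2-GOF value of array 1, so the groups overlapped. The ratios were 1.61 and 0.56, a mean of 1.09 ± 0.74 or 2.12-fold (adjusted p = 0.118 in limma).

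Of the listed megakaryocyte and platelet genes 7 of 8 were measured (Gp1ba was not), and none passed the test. Their median ratio was 0.03 (0.09 and 0.05 by array), and their summed signals were 9057 and 11160 in Tbx2-GOF and 6993 and 11140 in control. The largest with the same sign on both arrays, Ppbp and Gp9, platelet chemokine and glycoprotein genes, had 0.38 and 0.19. The summed signal, like that of Vwf, was higher in Tbx2-GOF on array 1, and its part in the Vwf result was not tested.

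Egfl7, a matrix protein secreted by endothelial cells, had 26430 and 27730 in Tbx2-GOF and 21430 and 20200 in control. The groups were apart, with ratios of 0.30 and 0.46 (mean 0.38 ± 0.11, adjusted p = 0.353). Mmrn2, multimerin 2, a matrix protein of the endothelial surface, had 4172 and 4074 against 3001 and 3581 (0.33 ± 0.20, adjusted p = 0.521). Its groups were apart as well.

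All 7 measured transcription factor genes of the 8 were higher on both arrays, with a median ratio of 0.25. Etv2, an ETS factor that starts the endothelial and blood lineages in the early embryo, had low signals of 202 and 218 in Tbx2-GOF and 161 and 164 in control, where the lowest signals well above background were 87.6 to 96.5. Its ratios were 0.33 and 0.41 (mean 0.37 ± 0.06, adjusted p = 0.358), and a second probe 857 bases away gave 0.30 and 0.51. Both Etv2 probes therefore separated the genotypes on both arrays.

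Fli1, an ETS factor kept in mature endothelium, had ratios of 0.46 and 0.08 (mean 0.27 ± 0.26), and Tal1, a basic helix-loop-helix factor of blood and endothelial progenitors, had 0.45 and 0.05 (mean 0.25 ± 0.29). The SOXF genes were ordered Sox17, with 0.39 and 0.10 (mean 0.25 ± 0.20), Sox18, with 0.31 and 0.11 (0.21 ± 0.14), and Sox7, with 0.14 and 0.05 (0.10 ± 0.07). These neighbours did not differ beyond their spread between arrays. A second Sox17 probe was above 0 on array 1 (0.51) and below on array 2 (-0.08). For Erg, 1 probe was well above background in the Tbx2-GOF channel of 1 array and in the control channel of 1 array, and the other probe in no channel, so no ratio is given.

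ETS and SOX motifs were counted in promoters because both families are among the members. RefSeq promoter sequence (GRCm38.p6, the 250 bases before each start) was given for 17 of the 32 genes, in 24 windows. The ETS core GGAA, on either strand, was in 22 of 24 windows (91.7%) and in 93.4% of 32851 windows of all genes, with a median of 4 and 3 matches. The SOX core ACAAT was in 5 of 24 (20.8%) and in 27.7%. The shares in endothelial promoters were thus near those of all promoters. Emcn and Cldn5 are printed because their ratios were alike (0.37 and 0.36) while their windows differed, with 4 GGAA matches and 1 ACAAT match for Emcn and 0 of both for Cldn5. Capitals mark matches on either strand, and both windows are on the plus strand.
Emcn, chr3:137340828-137341077: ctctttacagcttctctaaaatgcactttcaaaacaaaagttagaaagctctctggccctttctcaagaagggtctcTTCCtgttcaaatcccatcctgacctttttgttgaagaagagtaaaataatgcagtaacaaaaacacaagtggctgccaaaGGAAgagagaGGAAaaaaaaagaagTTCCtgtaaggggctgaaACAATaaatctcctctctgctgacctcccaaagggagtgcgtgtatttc
Cldn5, chr16:18776597-18776846: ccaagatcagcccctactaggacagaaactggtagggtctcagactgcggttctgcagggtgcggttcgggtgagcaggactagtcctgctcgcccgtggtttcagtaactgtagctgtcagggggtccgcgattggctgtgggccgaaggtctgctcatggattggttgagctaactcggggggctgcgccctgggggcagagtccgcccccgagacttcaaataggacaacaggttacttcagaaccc
A match describes these letters and shows no binding.

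The members shared their direction more than their order. Across the 31 genes the ratios of the arrays had a Pearson correlation of 0.23 and a Spearman correlation of 0.05; over all genes these were 0.31 and 0.12. These points share 4 extracts. Array 1 gave the higher ratio for 25 of 31 members and for 10328 of all 21097 genes. The median SD between arrays was 0.15 for members and 0.14 for all genes, so the spread of single members was like that of other genes. The summed signal of the 31 genes was 202600 and 212200 in Tbx2-GOF and 164500 and 190700 in control extracts. Brighter probes weigh more in this and the other summed signals than dim ones. In whole ureters, more endothelial cells and more of these RNAs per cell cannot be told apart.

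**Figure D3:**
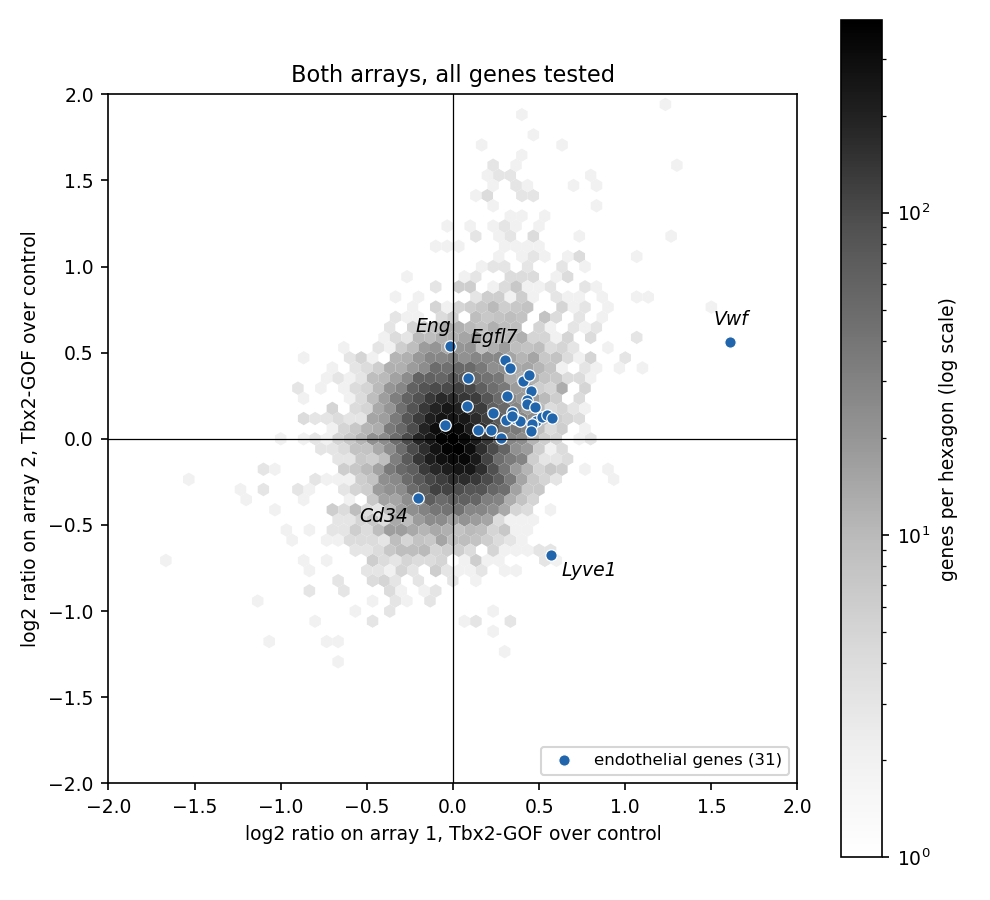
Log2 ratio on array 1 (horizontal) against array 2 (vertical) for the genes tested (grey hexagons, shaded by the number of genes on a log scale) and the 31 endothelial genes (blue points), with 35 genes beyond the axes not drawn. Most endothelial genes lie above 0 on both axes and farther along the axis of array 1 than of array 2; Vwf lies at 1.61 and 0.56, Lyve1 at 0.57 and -0.67.

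Further genes of the same pathways came from lists of ligands, receptors and targets. Of 12 vascular ligands 1 rose and 1 fell, and their median was 0.08. Angpt2, the angiopoietin that can oppose TEK signalling, rose (0.91 ± 0.21, adjusted p = 0.0471), and Cxcl12, a chemokine made by stromal cells, fell (-0.99 ± 0.02, adjusted p = 0.0319). Angpt2 lost its call in 4 of 10 alternative settings (adjusted p 0.0186 to 0.477) and Cxcl12 in 3 (0.0104 to 0.505). Angpt1, the activating ligand of TEK, named after its values were seen, had 0.74 and 0.73 on the arrays (adjusted p = 0.0671). Of 14 further receptors, 9 were higher on both arrays and none passed, with a median of 0.14. The largest among them were Nrp2, a co-receptor of VEGF-C (1.03 ± 0.55, adjusted p = 0.0778), and Ptprb, the phosphatase VE-PTP (0.52 ± 0.31, adjusted p = 0.248). Of 17 targets, junction and matrix genes 6 were higher and 4 lower on both arrays, with a median of 0.11. Col4a1, a basement membrane collagen, had 0.78 ± 0.07 (adjusted p = 0.0584), and Esm1, a secreted proteoglycan of endothelial tip cells, had -0.58 ± 0.14 (adjusted p = 0.143).

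Markers of cells that accompany vessels were read beside the endothelial genes. Of the 11 mural cell genes, which mark pericytes and vascular smooth muscle, none passed. Their median was 0.03, with 4 higher and 5 lower on both arrays. Over all 21097 genes, 5508 were higher and 5295 lower on both arrays. The mural genes had summed signals of 56860 and 55040 in Tbx2-GOF and 48230 and 47520 in control. Ndufa4l2 was at 0.80 (adjusted p = 0.0696) and Anpep at -0.58 (adjusted p = 0.13). Of 12 erythroid genes none passed and 8 were lower on both arrays, with a median of -0.37 and sums of 677100 and 586300 against 648700 and 818000. On array 1 the erythroid sum was thus higher in Tbx2-GOF, although the median ratio there was -0.15. Klf1, a transcription factor gene of red cell precursors, was at -0.54 (adjusted p = 0.192), lower on both arrays. The erythroid and endothelial medians thus lay on opposite sides of 0, and the part of either in the other was not tested.

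Of 12 macrophage and leukocyte genes 11 were measured (Fcgr1 was not) and none passed. All 11 means were above 0, led by Laptm5 (0.27) and Aif1 (0.26), and 6 genes were higher on both arrays. By array their median was 0.37 (array 1) and 0.02 (array 2), and array 1 gave the higher ratio for 10 of 11. On array 1 this median equalled the endothelial one, and on array 2 it was smaller. Their sums were 38870 and 47650 in Tbx2-GOF and 29910 and 50690 in control. The part of these cells in the endothelial values was not tested.

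Of the 10 genes of the ureteric mesenchyme 1 fell, Foxd1, a forkhead gene of stromal progenitors (-0.98, adjusted p = 0.0471), and Aldh1a2, a retinoic acid synthesis gene, was at 0.71 (adjusted p = 0.101). Of the 13 genes of the ureteric epithelium 1 fell, the uroplakin gene Upk3a (-0.86, adjusted p = 0.045), and the receptor gene Ret was at 1.25 (adjusted p = 0.12). In this list 6 genes were higher and 3 lower on both arrays. The uroplakin genes did not share a direction. Upk2 was at 0.84 (adjusted p = 0.0715) and Upk1b at -0.41 (adjusted p = 0.372), both named after their values were seen. Foxd1 lost its call in 4 of 10 alternative settings (adjusted p 0.0131 to 0.52) and Upk3a in 3 (0.0161 to 0.501). None of 6 mesothelial genes passed, and 1 was higher and 3 were lower on both arrays. Lrrn4 was at -0.76 (-1.23 and -0.29 by array) and Muc16 at -0.31. The medians of these lists were -0.12, 0.14 and -0.14, beside 0.26 for the endothelial genes.

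**Figure D4:**
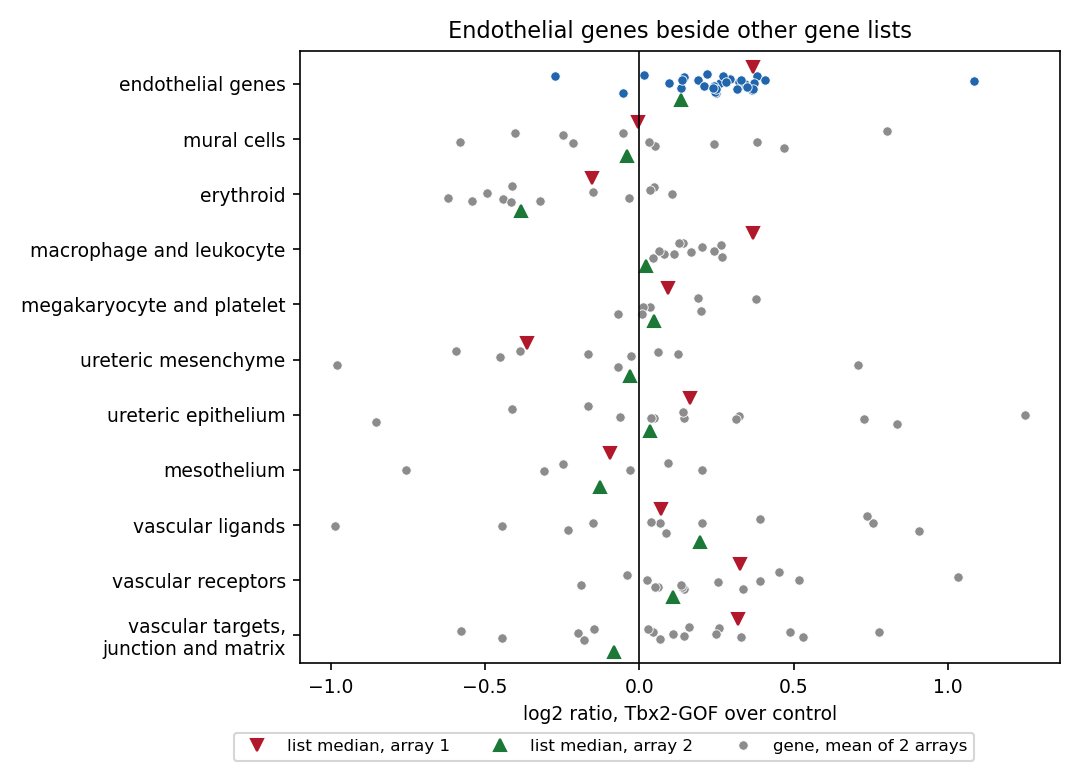
Mean log2 ratio of Tbx2-GOF over control for each gene (points, scattered vertically for visibility) of the endothelial set and of 10 other lists, with each list's median on array 1 (downward triangle) and array 2 (upward triangle). Of the 31 endothelial points, 26 lie between 0.1 and 0.42 and Vwf lies at 1.09, whereas the erythroid median is below 0 on both arrays.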

How the data were processed

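Probes were read from the scanner files of Agilent Feature Extraction 10.7.3.1, named in the submitters' processing notes. Per the file headers, mean spot signals and local backgrounds are intensity values as scanned, and processed signals are intensities that the software corrected for background and dye. The deposited log ratio column is on the log10 scale, with red over green. The deposited series table holds signed fold ratios, treated as a score because their scale was not stated; turned by the labelled dyes, 99.2% and 98.8% of them matched the software's log ratio within 0.01 on the log10 scale, and 31.5% and 31.1% were exactly 1.

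Here, limma 3.58.1 in R 4.3.3 was run with normexp correction (offset 50), loess within arrays (span 0.3), weight 0 for flagged and control spots, and arrays left unscaled against each other. Probes were kept where 1 genotype was well above background on both arrays (26471 kept, 12958 left out), and the brightest kept probe stood for a gene. Each gene was tested over both arrays with lmFit and eBayes (two-sided, 1 residual and 6.36 prior degrees of freedom) with Benjamini-Hochberg adjustment over 21097 genes. "Rose" and "fell" mean an adjusted p below 0.05. Single-channel signals followed Aquantile normalization of the 2 arrays. Gene names were updated through RefSeq for 26412 probes (67.0%). Of all probes, 66.7% and 72.7% were well above background in Tbx2-GOF and 70.5% and 66.4% in control; the number of arrays limits the precision. Members and gene lists were chosen with earlier results of these data known. Every member is named. Of each other list, the genes past the test are named, and otherwise the 2 largest differences of the same sign on both arrays. Listed genes outside this rule are marked as named after their values were seen. A result that this rule would name is not reported here. Alternatives in background correction, normalization, filter, choice of probe and moderation were run, and each array was taken alone.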

Additional observations from a re-analysis of the deposited data

How the results depend on the processing

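Over 10 alternatives that used both arrays, 310 of 310 member values kept their direction and their side of the threshold. No member passed, and the endothelial median stayed between 0.25 and 0.28. These values are not independent checks. The filter settings and the trend and robust estimation reused the main ratios, so direction could not change there. The mean of a gene's probes could change only the 5 members with more than 1 kept probe. The series value table and the processed signals gave nearly the same member ratios. The count of all genes past the test, 135, was 0 with Feature Extraction's processed signals, 0 with median centring in place of loess and 0 with the series value table. It was 313 after scaling between arrays, 276 with no filter on dim probes and 211 with the mean of a gene's probes; the cause was not tested. The number of members at least 1.5-fold apart on both arrays, 0, was 1 with median centring. On a single array 1 and 1 members were that far apart, and the median without replicate 1 was 0.14 and without replicate 2 was 0.37. At an unadjusted p below 0.05, 3 of 31 members were higher with median centring (3.68% of all genes) and 13 of 32 without the filter on dim probes (4.55%), against 9 of 31 (5.63%). With trend and robust estimation 10 were higher (5.42% of all genes) and 1 lower (3.73%). The mean ratio of Vwf ran from 1.08 to 1.13, with a lowest adjusted p of 0.0579 after scaling between arrays. That of Etv2, whose signal is low, ran from 0.35 to 0.59, and that of Prox1, also low in signal, from 0.15 to 0.32. The Kdr ratio ran from 0.20, with the mean of its probes, to 0.33. Tek (0.01 to 0.04) and Lyve1 (-0.07 to -0.0032) stayed near 0. With 2 arrays, dye and array have no separate estimate.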
